A study of Canis lupus familiaris with 15 samples.

Results

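The transcription factor NRF2 (gene NFE2L2) and 9 antioxidant and detoxifying genes were followed across 15 microarrays of MDCK, an established epithelial cell line from dog kidney. The genes were chosen by symbol, with earlier results of these data known: NFE2L2, NQO1, GCLC, GCLM, TXNRD1, ME1, HMOX1, GSTA4, FTH1 and MGST1. They accounted for 24 of the 42924 probe sets that were not array controls, and 20 of the 24 reached the level needed for testing. To be tested, a probe set had to read 4 or more (log2) on 3 or more arrays. All 10 genes kept a probe set. The brightest tested probe set, by its mean over all arrays, stood for each gene. One further probe set listed GSTA4 together with another gene and was left out.

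The cells were grown on Transwell filters for 7 days in MEM with serum, and the labels call the arrays of a group biological replicates. Control cells received only medium (n = 4). The HGF group received hepatocyte growth factor, the ligand of the receptor MET, at 100 ng/ml for 24 h (n = 4). The HGF + PD group received the same HGF with 50 uM of a compound spelled PD09859 (n = 4), and the HGF + UO group the same HGF with 10 uM of a compound spelled UO126 (n = 3). They are taken here as PD98059 and U0126, which block MEK in the MAPK pathway, as the series title names inhibitors of that pathway. The design asks which effects of HGF on gene expression need MAPK signalling. None of the arrays had an inhibitor without HGF. An inhibitor's own effect therefore cannot be told apart from a change in the response to HGF. The sources used here do not give the vehicle. Compound and dose changed together, so the inhibitor groups could differ through either.

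NRF2 is a basic leucine zipper factor that is held in the cytoplasm and sent for degradation by KEAP1. Oxidants and electrophiles modify KEAP1, after which NRF2 accumulates, pairs with small MAF proteins and activates genes that carry antioxidant response elements. Its known targets make glutathione, attach it to toxic molecules, reduce quinones and thioredoxin, supply NADPH, break down heme and store iron. Proximal tubule cells of the kidney carry a high oxidative load and express many of these enzymes. Whether MDCK cells resemble them was not tested here. NRF2 is controlled largely through its protein, which arrays of RNA do not measure.

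The values are GCRMA intensities on the log2 scale, and array medians lay between 40.4 and 42.6 on the linear scale. Of the kidney epithelium markers, EPCAM, KRT8 and KRT18 had group means between 14.37 and 15.32. The kidney cadherin CDH16 read 10.77 ± 0.16 in Control and 7.77 ± 0.41 with HGF (SD, n = 4 and 4). Of 8 kidney epithelium markers 7 were tested, and 4 fell and 1 rose with HGF, where 27.7% of all genes fell and 28.0% rose. In each inhibitor group 5 of the 7 were lower than in Control and 0 higher by limma. Of all genes 13.5% were lower and 21.8% higher with HGF + PD, and 10.3% and 13.8% with HGF + UO. Of the other cell types' markers, 2 of 5 for fibroblasts, 3 of 5 for endothelium and 3 of 5 for leukocytes reached the test, and group means of the endothelial PECAM1 and CDH5 lay between 7.13 and 8.23 with no call in any comparison. CD68, a macrophage marker, read 3.25 ± 0.06 in Control and 6.28 ± 1.54 with HGF, while the T cell marker CD3E fell from 6.04 ± 0.06 to 5.89 ± 0.08, the monocyte marker CD14 did not pass, and PTPRC, found on all leukocytes, did not reach the test. The part of other cell types in the members' changes was not tested. The ratio of 3' to 5' beta-actin control probe sets, a measure of RNA integrity and labelling, was 0.59 ± 0.03 on the HGF arrays, against 1.34 ± 0.05 for Control, 1.28 ± 0.06 for HGF + PD and 1.28 ± 0.04 for HGF + UO (mean of 2 pairs of probe sets on the log2 scale, SD). The HGF arrays did not overlap with any other group, and each of these 3 differences had an exact permutation p of 0.0286, the smallest these group sizes allow (0.0571 adjusted over 12 comparisons, two-sided). The same ratio for GAPDH was 1.13 ± 0.04 in Control, 1.06 ± 0.04 with HGF (difference -0.07, exact permutation p = 0.0571), 1.08 ± 0.03 with HGF + PD and 1.25 ± 0.02 with HGF + UO. For GAPDH it was the HGF + UO arrays that lay apart from all other groups, each with an exact permutation p of 0.0286 (0.0571 adjusted over the 12). The part of these ratios in the members' changes, with HGF and with UO, was not tested.

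With HGF, 7 of the 10 genes fell and 2 rose, and 1 passed in neither direction. The genes that fell were NFE2L2, GCLC, GCLM, GSTA4, MGST1, FTH1 and ME1. NQO1 and TXNRD1 rose, and HMOX1 was near the filter level on every array. Over all 10287 genes tested, 27.7% fell and 28.0% rose, and the median difference was -0.01 on the log2 scale against -0.71 over the 10 genes. Changes of at least 1 on the log2 scale were seen in 4 that fell, against 6.43% of all genes, and in 1 that rose, against 7.29%. The 10 genes and the pathway lists below were chosen with earlier results of these data known. Their shares, here and below, are therefore no independent test against all genes. The comparisons of an inhibitor group with HGF use the same HGF arrays as the comparison of HGF with Control, so the values of each are given side by side. Adjusted p-values are from limma, fitted to all tested probe sets, and differences are given with their standard errors.

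**Figure D1:**
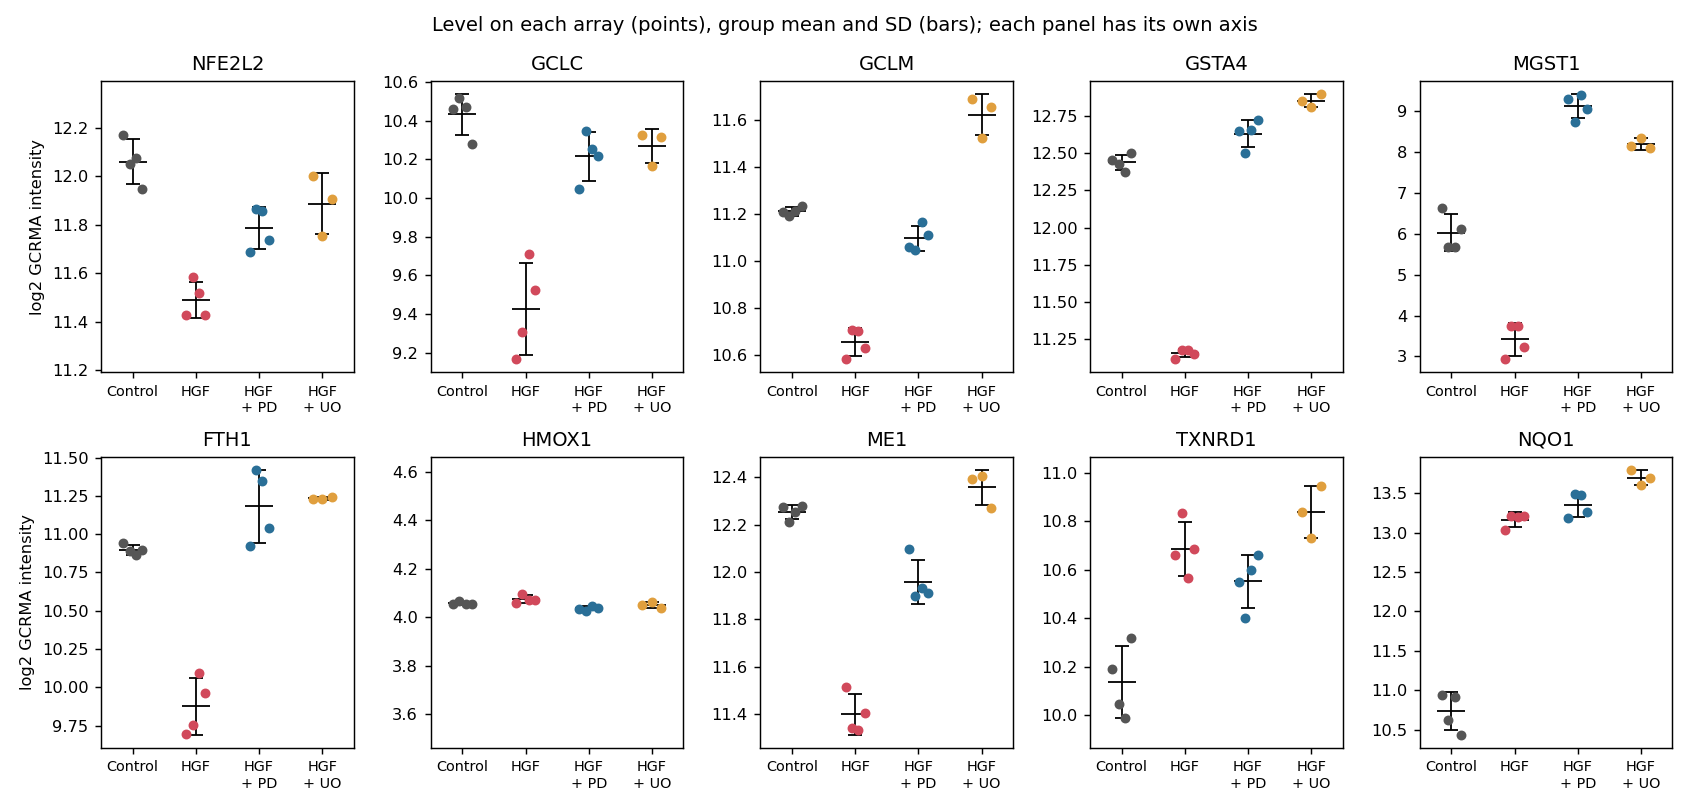
Log2 GCRMA intensity of the 10 genes on each array (points) with the group mean and SD (bars), for Control, HGF and HGF + PD (n = 4 each) and HGF + UO (n = 3). Each panel has its own axis, and in 7 panels the 4 HGF arrays lie below those of all other groups. The share of all genes with such a separation was not counted. In NQO1 the Control arrays stand apart, with no Control array above 10.94 and no other array below 13.03.

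NFE2L2 mRNA itself was lower with HGF. Its Control arrays read 12.17, 12.05, 12.08 and 11.95 and its HGF arrays 11.43, 11.58, 11.52 and 11.43 (log2). The HGF + PD arrays read 11.69, 11.87, 11.86 and 11.74, and the HGF + UO arrays 12.00, 11.75 and 11.90. The Control and HGF arrays did not overlap, and both inhibitor groups lay above HGF without overlap. NFE2L2 fell by 0.57 ± 0.06 with HGF (1.49-fold, adjusted p = 2.77e-06). It was higher than with HGF by 0.30 ± 0.06 in HGF + PD (adjusted p = 0.00118) and by 0.40 ± 0.07 in HGF + UO (adjusted p = 0.000219). A second NFE2L2 probe set gave differences of -0.82 ± 0.11, 0.80 ± 0.11 and 0.60 ± 0.12 in the same comparisons, all past the threshold, and the mean of both probe sets put the rise with PD at 0.55. Another did not exceed 3.71 on any array and was not tested.

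The order of NFE2L2 levels on the brightest probe set was HGF, HGF + PD, HGF + UO and Control, from lowest to highest. HGF + PD stayed below Control (-0.27 ± 0.06, adjusted p = 0.00445) on this probe set. The second gave -0.02 ± 0.11 for that difference (adjusted p = 0.887), and with the mean of both it was -0.15 (adjusted p = 0.0937). HGF + UO did not pass against Control (-0.17 ± 0.07, adjusted p = 0.0959, 95% interval -0.32 to -0.02), but without HGF + UO replicate 1 it was -0.23 with adjusted p = 0.0481. The inhibitor groups did not differ past the threshold from each other (0.10 ± 0.07, 95% interval -0.05 to 0.25), and on the second probe set their order was reversed (-0.20 ± 0.12, adjusted p = 0.313).

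Both subunits of glutamate-cysteine ligase, the enzyme that limits the rate of glutathione synthesis, fell with HGF. GCLC, the catalytic subunit, read 10.46, 10.52, 10.47 and 10.28 in Control, 9.17, 9.31, 9.71 and 9.52 with HGF, 10.04, 10.35, 10.26 and 10.22 with HGF + PD and 10.33, 10.16 and 10.31 with HGF + UO. The HGF arrays were the lowest and did not overlap with any other group, while the other 3 groups overlapped with each other. GCLC fell by 1.00 ± 0.10 with HGF (2.01-fold, adjusted p = 1.03e-06), and was higher by 0.79 ± 0.10 with PD and by 0.84 ± 0.11 with UO than with HGF alone (adjusted p = 1.26e-05 and 1.62e-05). Against Control neither inhibitor group passed, at -0.22 ± 0.10 for PD (95% interval -0.44 to 0.01) and -0.16 ± 0.11 for UO (-0.40 to 0.08). Scaling mattered for the former, which was -0.28 after quantile normalisation (adjusted p = 0.0274) and -0.25 with arrays centred on their median (adjusted p = 0.0416). The second GCLC probe set differed by -0.89 ± 0.10 with HGF, by 0.70 ± 0.10 with PD and by 0.74 ± 0.11 with UO.

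GCLM, the modifier subunit that raises the activity of GCLC, separated the inhibitor groups. Its arrays read 11.21, 11.19, 11.21 and 11.24 in Control and 10.58, 10.71, 10.70 and 10.63 with HGF. They read 11.06, 11.05, 11.17 and 11.11 with HGF + PD and 11.69, 11.53 and 11.65 with HGF + UO. No 2 groups overlapped, and the order from lowest to highest was HGF, HGF + PD, Control and HGF + UO. GCLM fell by 0.56 ± 0.05 with HGF (adjusted p = 8.91e-08) and rose by 0.44 ± 0.05 with PD and by 0.97 ± 0.05 with UO over HGF (adjusted p = 1.1e-06 and 6.83e-10). HGF + UO exceeded HGF + PD by 0.53 ± 0.05 (adjusted p = 5.06e-05) and Control by 0.41 ± 0.05 (adjusted p = 3.23e-05). HGF + PD did not pass against Control (-0.12 ± 0.05, adjusted p = 0.0638), but was -0.14 without HGF + PD replicate 3 (adjusted p = 0.0442), -0.18 after quantile normalisation (adjusted p = 0.00362) and -0.15 with arrays centred on their median (adjusted p = 0.0147). The second GCLM probe set gave -0.30 ± 0.08 with HGF and 0.77 ± 0.09 with UO. Its difference with PD was 0.11 ± 0.08 and did not pass (adjusted p = 0.271), and the mean of both was 0.28 (adjusted p = 0.000459), again past the threshold.

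The glutathione transferases fell with HGF and ended above Control when an inhibitor was present. GSTA4, which conjugates glutathione to the lipid peroxidation product 4-hydroxynonenal, read 12.45, 12.42, 12.37 and 12.50 in Control and 11.12, 11.18, 11.18 and 11.15 with HGF. With HGF + PD it read 12.64, 12.50, 12.65 and 12.72, and with HGF + UO 12.85, 12.81 and 12.89. The HGF arrays were the lowest by more than 1 log2 unit, and the HGF + UO arrays were the highest. GSTA4 fell by 1.28 ± 0.05 with HGF (2.43-fold, adjusted p = 1.34e-11). It rose over HGF by 1.47 ± 0.05 with PD (2.78-fold, adjusted p = 3.33e-12) and by 1.69 ± 0.05 with UO (3.23-fold, adjusted p = 2.38e-12).

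GSTA4 exceeded Control by 0.41 ± 0.05 with HGF + UO (adjusted p = 2.84e-05, no overlap) and by 0.19 ± 0.05 with HGF + PD (adjusted p = 0.00402), where the lowest HGF + PD array equalled the highest Control array to 2 decimals. A second GSTA4 probe set gave -1.40 ± 0.07 with HGF, 1.51 ± 0.07 with PD and 1.91 ± 0.07 with UO, and did not pass for HGF + PD against Control (0.10 ± 0.07, adjusted p = 0.244). HGF + UO lay above HGF + PD by 0.22 ± 0.05 (adjusted p = 0.0139) and by 0.40 ± 0.07 on the second probe set (adjusted p = 0.00377). The former was 0.20 without HGF + UO replicate 3 (adjusted p = 0.0585), and had an adjusted p = 0.0818 when only these 2 groups were fitted.

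MGST1, a membrane-bound glutathione transferase of the endoplasmic reticulum and outer mitochondrial membrane, had the widest range of the 10 genes. It read 6.64, 5.69, 5.68 and 6.11 in Control and 2.94, 3.75, 3.75 and 3.23 with HGF, where all 4 arrays lay below the filter level. With HGF + PD it read 9.30, 8.74, 9.40 and 9.07, and with HGF + UO 8.15, 8.36 and 8.10. No 2 groups overlapped, and the order was HGF, Control, HGF + UO and HGF + PD. Because the HGF level was below the filter, its differences are given as lower bounds, with the HGF group set at the filter level. MGST1 was at least 4.09-fold lower with HGF than in Control (2.03 on the log2 scale, adjusted p of the fitted difference = 1.87e-07). It was at least 34.9-fold higher with PD and at least 18.4-fold higher with UO than with HGF alone (5.13 and 4.20, adjusted p = 5.1e-11 and 8.26e-10). With 16 added to the intensities to damp dim values, the fitted differences were -1.61 with HGF, 4.42 with PD and 3.53 with UO. Another MGST1 probe set did not exceed 2.20 on any array and was not tested.

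Against Control, where 4 of 4 arrays were above the filter, MGST1 was higher by 3.09 ± 0.23 with HGF + PD (8.54-fold, adjusted p = 1.92e-07). With HGF + UO it was higher by 2.17 ± 0.25 (4.5-fold, adjusted p = 2.17e-05). A second, dimmer MGST1 probe set gave 3.28 ± 0.35 and 2.24 ± 0.37 for the same comparisons, and -0.99 ± 0.35 with HGF (adjusted p = 0.0255), with overlap of the HGF and Control arrays and no HGF array above the filter level. MGST1 was lower with UO than with PD (-0.92 ± 0.25, adjusted p = 0.0337). This call was lost when any array but HGF + PD replicate 2 was left out of these 2 groups, with adjusted p between 0.0700 and 0.101. MGST1 was the 1 member lower with UO than with PD, while GCLM, ME1 and GSTA4 were higher.

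Of the iron and heme genes, FTH1 fell with HGF and HMOX1 stayed near the filter level. FTH1, the ferritin heavy chain that oxidises and stores iron, read 10.95, 10.89, 10.86 and 10.89 in Control and 9.70, 9.75, 10.09 and 9.96 with HGF. With HGF + PD it read 10.92, 11.42, 11.34 and 11.04, and with HGF + UO 11.23, 11.23 and 11.24. The HGF arrays did not overlap with any other group. FTH1 fell by 1.02 ± 0.10 with HGF (2.03-fold, adjusted p = 9.47e-07) and rose over HGF by 1.31 ± 0.10 with PD and 1.36 ± 0.11 with UO (adjusted p = 6.99e-08 and 1.26e-07). Ferritin genes have many near-identical copies in mammalian genomes, and a single probe set carried FTH1, so that signal from copies cannot be told apart.

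Both inhibitor groups lay slightly above Control for FTH1, by 0.28 ± 0.10 with PD and 0.34 ± 0.11 with UO (adjusted p = 0.0494 and 0.0468). The PD call was lost when any Control array, HGF + PD replicate 2 or HGF + PD replicate 3 was left out, with differences of 0.20 to 0.30 and adjusted p up to 0.139. The UO call was lost without any 1 of its 7 arrays, with differences of 0.32 to 0.35 and adjusted p up to 0.115. HMOX1, the inducible heme oxygenase, lay between 4.03 and 4.10 on all 15 arrays, just above the filter level. Its difference was 0.02 ± 0.03 with HGF (95% interval -0.04 to 0.08), -0.04 ± 0.03 with PD and -0.02 ± 0.03 with UO over HGF, and none passed. With arrays centred on their median the PD value was -0.12 (adjusted p = 0.0446). HMOX1 thus lay at the edge of what was tested, on its 1 probe set.

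ME1, the cytosolic malic enzyme that makes NADPH from malate, also fell with HGF. It read 12.27, 12.21, 12.26 and 12.28 in Control, 11.52, 11.34, 11.33 and 11.41 with HGF, 12.10, 11.90, 11.93 and 11.91 with HGF + PD and 12.39, 12.40 and 12.27 with HGF + UO. The HGF arrays were lowest, the HGF + PD arrays came next without overlap with either side, and the Control and HGF + UO arrays overlapped. ME1 fell by 0.86 ± 0.05 with HGF (1.81-fold, adjusted p = 4.6e-09), and rose over HGF by 0.56 ± 0.05 with PD and 0.96 ± 0.06 with UO (adjusted p = 4.36e-07 and 3.8e-09). With HGF + PD it was still below Control (-0.30 ± 0.05, adjusted p = 0.000596), and with HGF + UO it did not differ past the threshold (0.10 ± 0.06, 95% interval -0.02 to 0.23). HGF + UO exceeded HGF + PD by 0.40 ± 0.06 (adjusted p = 0.00115). The second ME1 probe set gave -0.92 ± 0.13, 0.53 ± 0.13 and 1.07 ± 0.14 for HGF, PD and UO.

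NQO1 went the other way. It encodes a quinone reductase that uses NADPH or NADH and is a widely used readout of NRF2 activity. Its arrays read 10.94, 10.63, 10.92 and 10.44 in Control and 13.03, 13.22, 13.21 and 13.22 with HGF. They read 13.19, 13.49, 13.48 and 13.26 with HGF + PD and 13.80, 13.60 and 13.70 with HGF + UO. The Control arrays lay more than 2 log2 units below every other array, and the HGF + UO arrays were the highest without overlap. NQO1 rose by 2.44 ± 0.10 with HGF (5.42-fold, adjusted p = 9.93e-11) and by 3.16 ± 0.08 on a second probe set (8.94-fold, adjusted p = 7.12e-13). Another did not exceed 2.99 on any array and was not tested.

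NQO1 was no lower with either inhibitor than with HGF alone. The difference from HGF was 0.19 ± 0.10 with PD (adjusted p = 0.148, 95% interval -0.04 to 0.41), and NQO1 rose by a further 0.53 ± 0.11 with UO (adjusted p = 0.00108). On the second probe set these values were 0.17 ± 0.08 (95% interval -0.01 to 0.34) and 0.59 ± 0.09. NQO1 stood 6.17-fold above Control with HGF + PD and 7.84-fold with HGF + UO, differences of 2.63 ± 0.10 and 2.97 ± 0.11. HGF + UO lay above HGF + PD by 0.34 ± 0.11, which did not pass (adjusted p = 0.0742). It passed on the second probe set (0.42 ± 0.09, adjusted p = 0.0104), for the mean of both (0.38, adjusted p = 0.0143) and with arrays centred on their median (0.38, adjusted p = 0.0318).

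TXNRD1, the cytosolic selenoenzyme that reduces thioredoxin, had 4 tested probe sets that disagreed. The brightest read 10.19, 10.05, 9.99 and 10.32 in Control, 10.66, 10.83, 10.56 and 10.69 with HGF, 10.55, 10.40, 10.60 and 10.66 with HGF + PD and 10.84, 10.73 and 10.95 with HGF + UO. All Control arrays lay below the other groups, and all HGF + UO arrays lay above the HGF + PD arrays. On it TXNRD1 rose by 0.55 ± 0.08 with HGF (adjusted p = 4.86e-05), and the differences from HGF with PD (-0.13 ± 0.08) and UO (0.15 ± 0.09) did not pass. Against Control the inhibitor groups were higher, by 0.42 ± 0.08 with PD and 0.70 ± 0.09 with UO (adjusted p = 0.00134 and 5.78e-05). With arrays centred on their median the PD value against HGF was -0.21 (adjusted p = 0.0302).

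The other 3 tested TXNRD1 probe sets differed by 0.09 ± 0.09, 0.25 ± 0.11 and -0.12 ± 0.08 with HGF, and none passed. One more TXNRD1 probe set stayed at or below 2.53 on every array and was not tested. With PD over HGF they differed by -0.22 ± 0.09, -0.17 ± 0.11 and 0.10 ± 0.08, and the first of these passed (adjusted p = 0.0389) without overlap of the arrays. The differences of these 3 with UO over HGF were 0.10 ± 0.09, 0.35 ± 0.12 and 0.51 ± 0.08, and the last 2 passed (adjusted p = 0.0235 and 0.000105). Averaged over the 4, TXNRD1 differed by 0.19 with HGF (adjusted p = 0.0133), by 0.28 with UO over HGF (adjusted p = 0.00199) and by 0.09 with HGF + PD over Control (adjusted p = 0.282). HGF + UO lay above HGF + PD on all 4, by 0.29 ± 0.09 on the brightest (adjusted p = 0.0616) and by 0.32 ± 0.09, 0.52 ± 0.12 and 0.41 ± 0.08 on the others, which passed (adjusted p = 0.0450, 0.0171 and 0.00831).

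**Figure D2:**
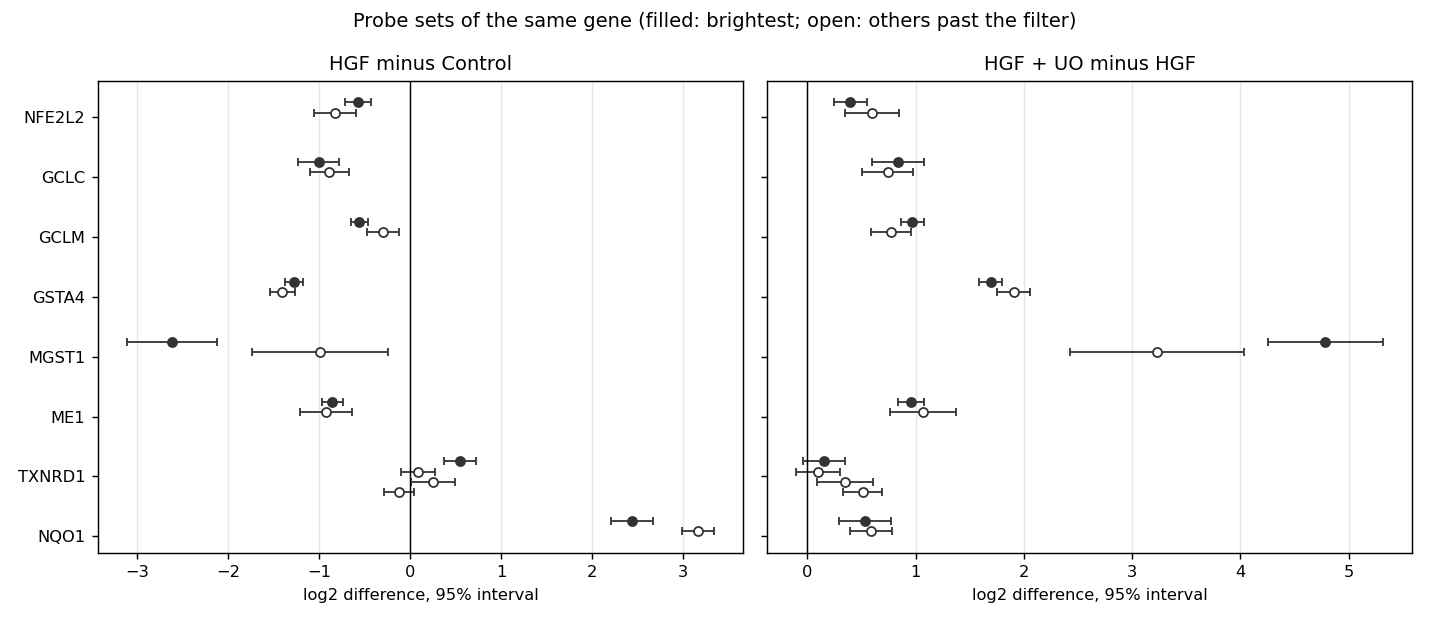
Log2 difference with its 95% interval for each tested probe set of the 8 genes with more than 1, for HGF minus Control (left) and HGF + UO minus HGF (right). Filled points are the brightest probe set of a gene and open points the others. Probe sets lie on the same side of 0 in 7 of the 8 genes, and those of TXNRD1 spread around 0 with HGF.

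Counted over the genes, 7 of 10 were higher with HGF + PD than with HGF and 0 lower by limma (0 also at an unadjusted p below 0.05), where 29.9% of all genes were higher and 25.8% lower. With HGF + UO 8 of 10 were higher and 0 lower by limma (0 also at an unadjusted p below 0.05), against 26.2% and 26.3%. The median difference of the 10 genes was 0.50 with PD and 0.90 with UO, and that of all genes -0.02 and -0.003. With arrays centred on their median, 2 of the 10, TXNRD1 and HMOX1, were lower with PD. That centring moved the median difference of all tested probe sets by -0.08 in this comparison, and HMOX1 lay near the filter level on every array. Against Control, 5 of 10 were higher with HGF + PD and 2 lower (all genes 21.8% and 13.5%), and 6 were higher with HGF + UO and 0 lower by limma (13.8% and 10.3%), with NFE2L2 lower at an unadjusted p below 0.05. When any 1 of the arrays of these groups was left out, 5 were higher with HGF + UO, since FTH1 no longer passed. After quantile normalisation or centring on the median, 4 were lower with HGF + PD than Control, since GCLC and GCLM were added to NFE2L2 and ME1. Of the calls for HGF + PD against Control, those of GSTA4, TXNRD1 and NFE2L2 were not made on any other tested probe set of the gene. The call of FTH1 was lost without some single arrays.

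HGF + UO exceeded HGF + PD in 3 of 10 genes (GCLM, ME1 and GSTA4) and lay below it in 1 (MGST1), against 2.70% and 7.07% of all genes. With arrays centred on their median, or with the mean of a gene's probe sets, 5 were higher, the additional ones being NQO1 and TXNRD1. Without a filter on low values, or with the replicate number as a block, 0 were lower by limma, while MGST1 kept an unadjusted p below 0.05 in both. Since the doses were 50 uM and 10 uM, these differences cannot be assigned to the compound or to the dose.

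**Figure D3:**
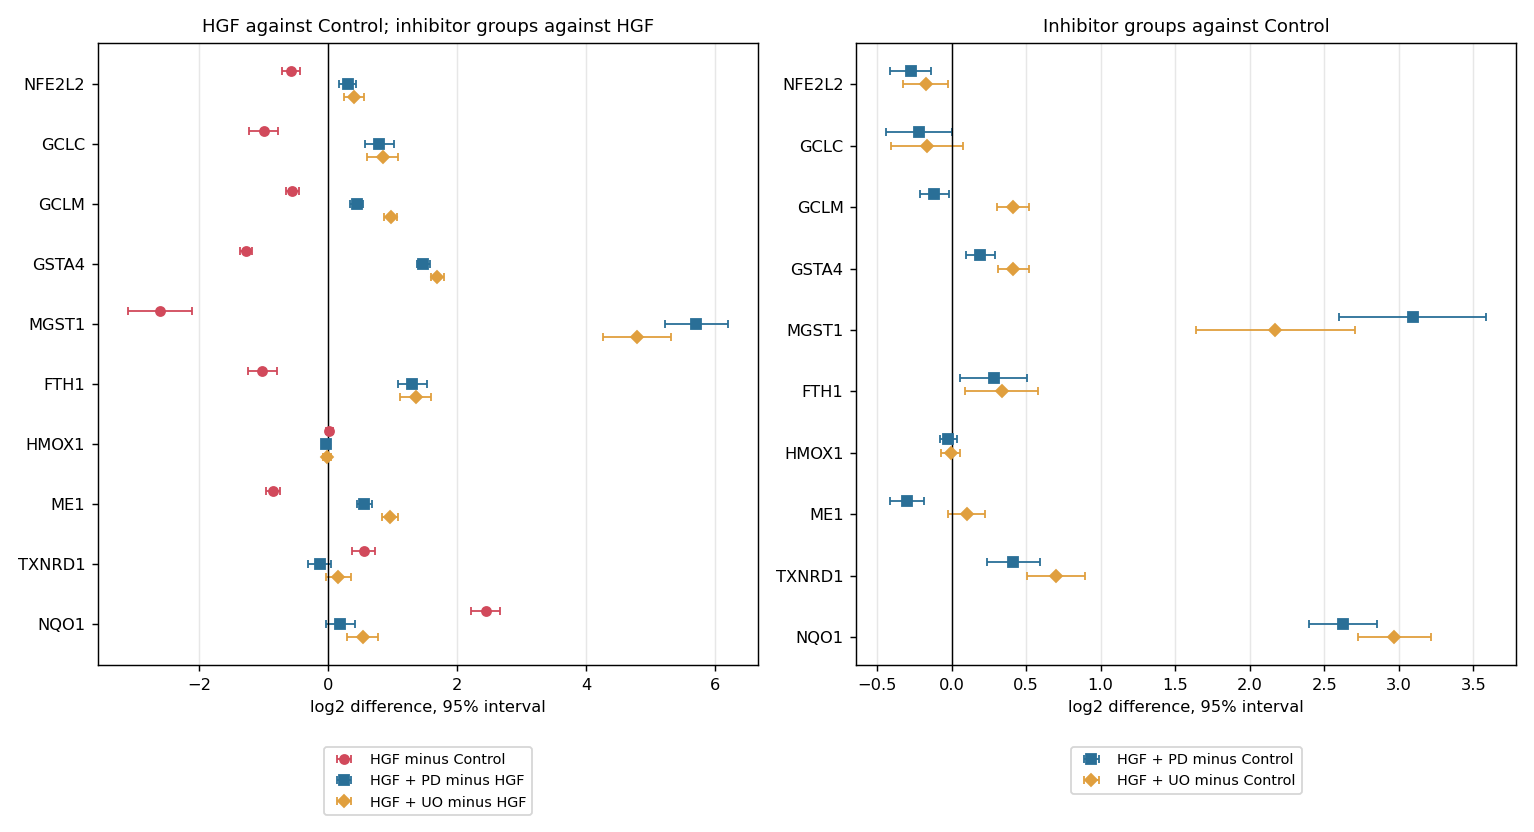
Log2 differences of the 10 genes with 95% intervals from the linear model, on the brightest probe set of each gene. The left panel shows HGF minus Control and each inhibitor group minus HGF (for MGST1 the fitted values, with HGF below the filter level), and the right panel each inhibitor group minus Control, where NQO1 and MGST1 lie above 2 with both inhibitors.

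The other genes of the pathway were taken from 7 lists with 126 genes, of which 108 had a probe set and 96 were tested. With HGF 32 rose and 37 fell (33.3% and 38.5%), against 28.0% and 27.7% of all genes. Over HGF, 43 were higher and 24 lower with PD (44.8% and 25%, all genes 29.9% and 25.8%), and 40 were higher and 25 lower with UO (41.7% and 26%, all genes 26.2% and 26.3%). The median difference of the 96 genes was -0.02 with HGF, 0.10 with PD and 0.05 with UO. Genes of these lists moved in both directions, and the shares that fell under an inhibitor were close to those of all genes.

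Among regulators of NRF2, 4 of 12 rose with HGF and 2 fell. For this list and those below, the shares of all genes were 28.0% rising and 27.7% falling with HGF. Those for the inhibitors stand above. KEAP1, the sensor that targets NRF2 for degradation, read 9.28 ± 0.13 in Control, 9.27 ± 0.11 with HGF, 9.45 ± 0.12 with HGF + PD and 9.41 ± 0.06 with HGF + UO. Its difference with HGF was -0.01 ± 0.08 and that with PD over HGF 0.18 ± 0.08 (adjusted p = 0.0658). The latter passed without HGF replicate 3 (0.23, adjusted p = 0.0261) or HGF + PD replicate 1 (0.24, adjusted p = 0.0193). BACH1, a repressor that competes with NRF2 at antioxidant response elements, rose by 1.25 ± 0.09 with HGF. Against HGF alone it fell by 1.40 ± 0.09 with PD and fell by 1.60 ± 0.10 with UO. NFE2L3, a related factor, changed by -1.36 ± 0.19 with HGF, 1.61 ± 0.19 with PD and 1.64 ± 0.20 with UO.

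Of 16 genes of glutathione synthesis and use, 5 rose and 8 fell with HGF, and 9 were higher and 3 lower with PD, 9 higher and 4 lower with UO. GGT1, which cleaves extracellular glutathione at the brush border, fell by 2.19 ± 0.09 with HGF (-1.71 on another probe set) and rose by 1.65 ± 0.09 with PD and 1.76 ± 0.10 with UO. CHAC1, which degrades glutathione inside the cell, rose by 1.08 ± 0.16 with HGF and fell by 1.04 ± 0.17 with UO. A dimmer CHAC1 probe set gave 3.91 and -3.91, and the mean of both 2.50 and -2.48 for HGF and UO. On the dimmer probe set (mean 4.13 over all arrays) every group but HGF had a mean below the filter level. The sizes of its differences, and of the mean of both, are therefore not firm. The glutaredoxin GLRX rose by 1.48 ± 0.13 with UO (0.04 and not past the threshold on a probe set near the filter level). Its fall with HGF (-0.38 ± 0.12, adjusted p = 0.0179) was lost without Control replicate 1 (-0.29) or HGF replicate 4 (-0.30). Glutathione reductase, GSR, rose by 0.35 ± 0.10 with PD and 0.46 ± 0.11 with UO over HGF. Its rise with HGF (0.25 ± 0.10, adjusted p = 0.0416) was lost without Control replicate 2, 3 or 4 or HGF replicate 3 or 4 (0.20 to 0.24). SLC7A11, the cystine transporter, had only probe sets below the filter.

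Of 18 thioredoxin and peroxiredoxin genes, 3 rose and 9 fell with HGF, while 8 were higher and 2 lower with each inhibitor over HGF. TXNIP, which binds and inhibits thioredoxin, fell from 14.47 ± 0.06 in Control to 10.34 ± 0.30 with HGF (SD, n = 4 and 4), a change of -4.13 ± 0.11 (-4.60 on another probe set). It rose by 3.58 ± 0.11 with PD and 3.60 ± 0.12 with UO. Thioredoxin itself, TXN, went up by 0.89 ± 0.05 with HGF and, against HGF alone, fell by 0.87 ± 0.05 with PD and fell by 0.64 ± 0.05 with UO. The methionine sulfoxide reductase MSRB1 changed by -1.80 ± 0.07, 1.56 ± 0.07 and 1.73 ± 0.08 in these comparisons.

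Of 10 NADPH supply genes, 7 rose with HGF and 2 fell. MTHFD2, a mitochondrial enzyme of the folate cycle, rose by 4.03 ± 0.08 (3.74 on another probe set), and ALDH1L1, a cytosolic folate enzyme that makes NADPH, fell by 1.64 ± 0.11 (4 other probe sets from -1.72 to -0.85). Over HGF, MTHFD2 changed by -2.74 ± 0.08 with PD and -2.98 ± 0.08 with UO, and ALDH1L1 by 0.76 ± 0.11 and 1.22 ± 0.12. ME1, which also makes NADPH and is not counted among these 10, fell. Of 21 detoxifying enzymes and exporters, 8 rose and 6 fell with HGF. The exporter of glutathione conjugates ABCC2 fell by 2.56 ± 0.15, the epoxide hydrolase EPHX1 fell by 1.37 ± 0.08 (-0.36 and -1.65 on other probe sets), and ABCC5 rose by 1.95 ± 0.25. The other ABCC5 probe sets gave -0.26, 1.33 and 0.03, and the mean of all 0.76. Under UO over HGF, EPHX1 rose by 1.63 ± 0.09 (0.73 and 2.79 on its other probe sets) and ABCC2 rose by 1.01 ± 0.16. On the EPHX1 probe set that gave -1.65 and 2.79 the HGF mean lay below the filter level, so these sizes are not firm. ABCC5 differed by -1.49 ± 0.27 on its brightest probe set, and by 0.45, -1.28 and -0.20 on the others, of which the first passed in the opposite direction and the last did not pass.

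Among 14 iron and heme genes, 5 rose and 7 fell with HGF. FTL, the ferritin light chain, fell by 0.43 ± 0.04 with HGF and rose by 0.64 ± 0.04 with PD and 0.82 ± 0.04 with UO, the directions seen for FTH1. TFRC, the transferrin receptor that brings iron into the cell, rose from 7.30 ± 0.46 to 11.32 ± 0.17 with HGF, a change of 4.02 ± 0.18 (4.58 on another probe set). Against HGF alone it fell by 2.07 ± 0.18 with PD and fell by 2.27 ± 0.19 with UO, and remained above Control by 1.95 ± 0.18 and 1.75 ± 0.19. ACO1, the iron-responsive RNA-binding aconitase, changed by -0.85 ± 0.06 with HGF and 1.06 ± 0.07 with UO, and the iron exporter SLC40A1 rose by 1.19 ± 0.08 with HGF. Of 5 genes of superoxide dismutases, catalase and partners, 3 fell with HGF and 0 rose by limma (0 rose at an unadjusted p below 0.05 as well). SOD1, the cytosolic superoxide dismutase, fell by 0.64 ± 0.07 and SOD2, the mitochondrial one, fell by 0.41 ± 0.05 (-0.85 on another probe set). Catalase, CAT, fell by 0.11 ± 0.03 (adjusted p = 0.0109), while -0.06 with arrays centred on their median did not pass (adjusted p = 0.200).

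**Figure D4:**
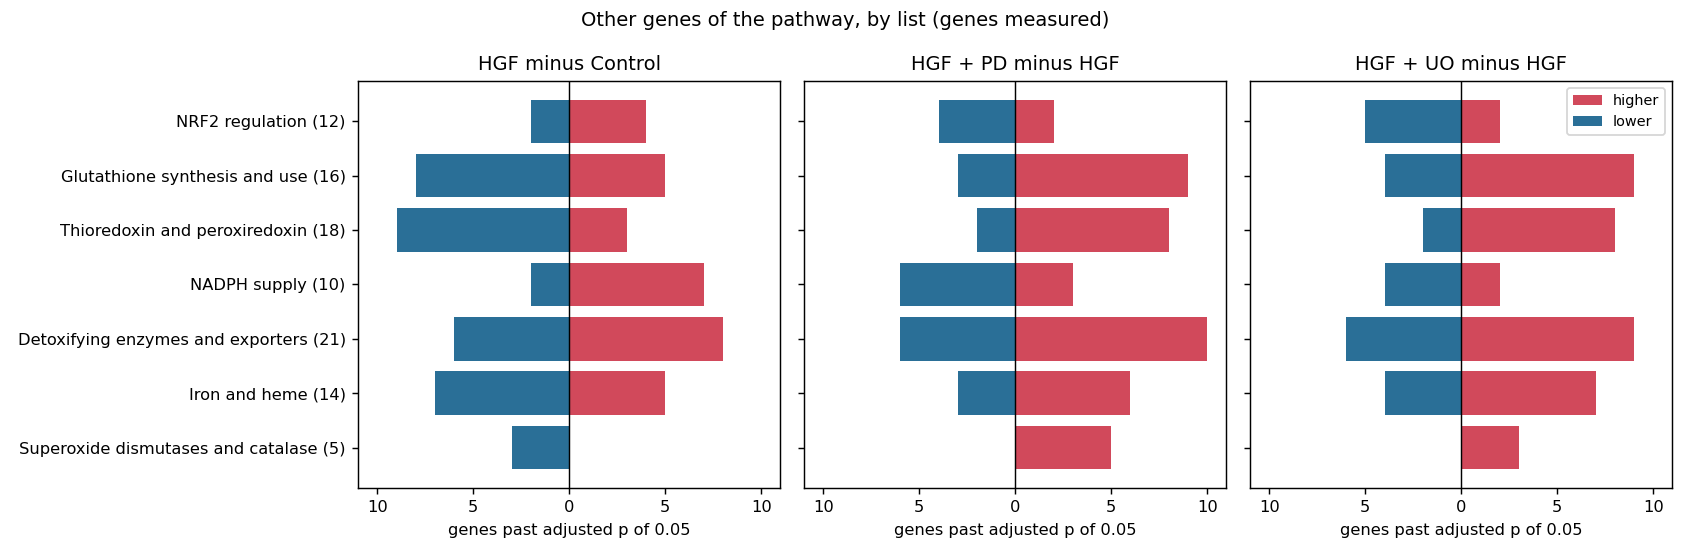
Number of genes in each of the 7 lists that were higher (red, to the right) or lower (blue, to the left) at an adjusted p below 0.05, for HGF minus Control, HGF + PD minus HGF and HGF + UO minus HGF. The number tested in each list stands in brackets, and the superoxide dismutase list has bars to 1 side only, 3 lower with HGF and 5 and 3 higher with PD and UO.

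**Figure D5:**
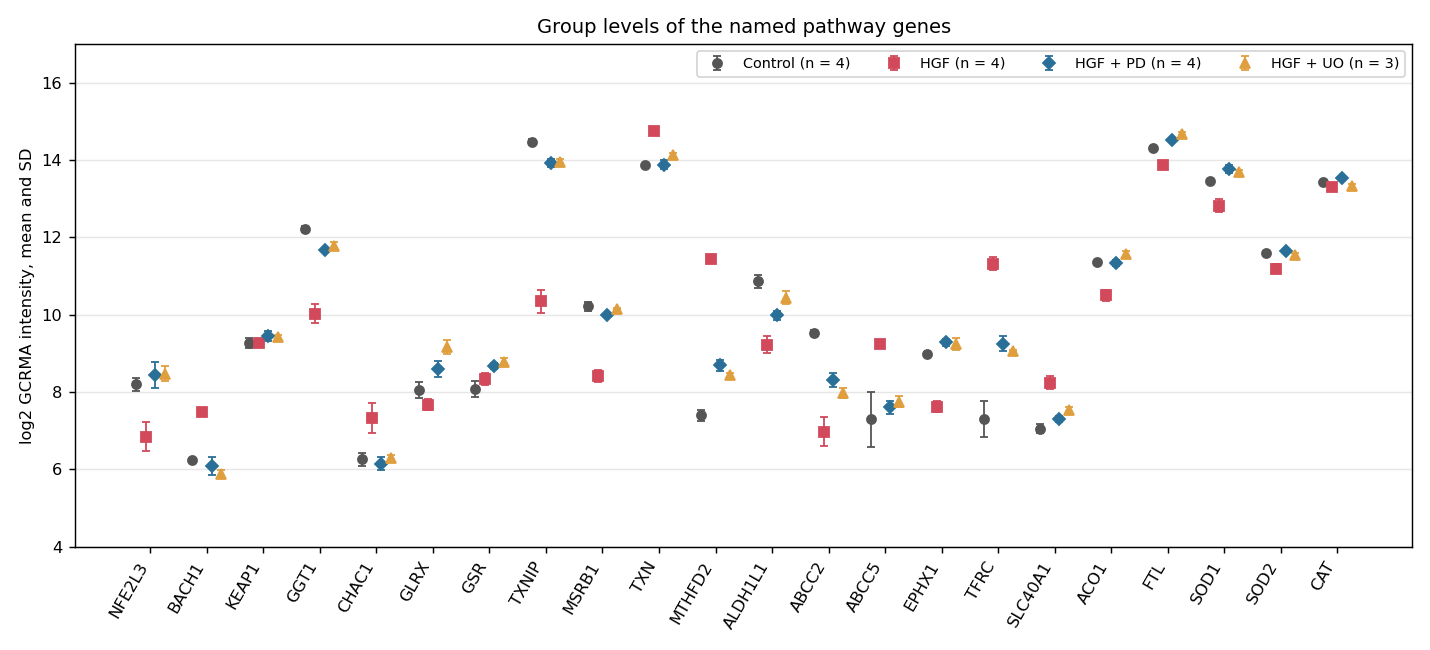
Mean log2 intensity and SD of the named pathway genes in Control, HGF, HGF + PD (n = 4 each) and HGF + UO (n = 3). The HGF group stands apart in TXNIP (10.34 ± 0.30) and MTHFD2 (11.43 ± 0.07), while the KEAP1 means lie together.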

How the data were processed

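Total RNA of 15 MDCK samples was biotin-labelled and hybridised to canine Affymetrix arrays, 1 per sample. The authors summarised probes with GCRMA, per the submitters' processing notes, and deposited linear intensity values for 43035 probe sets (1.97 to 104385). The sources used here do not give its version. Log2 was taken with no further scaling, and 111 control probe sets were left out. Probe sets were kept if 3 or more arrays read 4 or more (log2) (24904, 58%). Gene symbols came from the platform annotation (29254 probe sets with 1 symbol, 439 with several, 13231 unlisted), and all 10 symbols matched the current RefSeq symbol of their Entrez identifier. Each gene was represented by its brightest kept probe set (10287 genes).

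A linear model with a mean per group was fitted to all 15 arrays with limma 3.58.1 in R 4.3.3 (lmFit, eBayes with a variance trend), with Benjamini-Hochberg adjustment over kept probe sets and a threshold of 0.05. It was tested on simulated data. How the cultures behind the biological replicates were kept apart is not stated, so the p-values speak for these arrays only and the spread may be technical. No 2 arrays were near-identical. Depth does not apply to arrays; their number limits the precision. The alternatives tried were other filters, an offset of 16, quantile or median scaling, no variance trend, a robust variance, only the 2 groups compared, the replicate number as a block, each array left out, and the mean of a gene's probe sets.

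The members and lists were chosen with earlier results of these data known. In each list the 2 largest changes past the threshold with HGF, and the 2 with UO over HGF, were named, along with KEAP1, SLC7A11, GSR, TXN, FTL, CAT and SOD2. One further gene of that rule is not reported here. For NFE2L2, GSTA4 and MGST1 the 3 genes with the smallest root mean square difference of centred log2 values were named.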

Additional observations from a re-analysis of the deposited data

Results flagged for a closer look

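In 3 of 60 groups of 4 arrays, over the 20 tested probe sets, 1 array stood far from the other 3. The measure is the gap to the nearest array divided by the group's range, and chance alone gives about 1 in 20 groups. On the dimmer MGST1 probe set HGF replicate 2 read 3.96 and the other HGF arrays 2.80 to 2.90, a share of 0.912. All 4 values lie below the filter level. On a dimmer TXNRD1 probe set HGF + PD replicate 4 read 7.05 against 7.37 to 7.38, a share of 0.956. For NQO1 HGF replicate 1 read 13.03 against 13.21 to 13.22, a share of 0.939, a gap that is small beside its rise with HGF.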

How the results depend on the processing

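Under the 10 alternatives other than leaving out an array, and with each array left out, the counts of the 10 genes that rose and fell with HGF, and that rose over HGF with each inhibitor, stayed within 1.5 times the reported ones. The comparison of HGF + UO with HGF + PD changed most. With only these groups fitted, 997 probe sets were called (292 higher, 705 lower) in place of 2295, and 3 pathway genes were higher and 4 lower in place of 8 and 8. Fewer arrays estimated the spread there. With the mean of a gene's probe sets, 13 pathway genes were lower and 5 of the 10 genes higher. With arrays centred on their median, 5 of the 10 were higher with UO than with PD, 2 were lower with PD than with HGF, and 4 were lower with HGF + PD than in Control, also 4 after quantile normalisation. Without a filter, and with the replicate block, the number of the 10 lower with UO than with PD was 0 in place of 1 by limma, where MGST1 kept an unadjusted p below 0.05. The cause was not tested.

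Leaving out 1 array at a time gave 1208 (without HGF + PD replicate 4) to 2924 (without HGF + PD replicate 2) probe sets called between the inhibitor groups, 383 to 738 higher and 787 to 2186 lower. Of the pathway genes, 4 to 8 were higher and 4 to 11 lower there, and 8 (without HGF + UO replicate 2) to 15 were lower with HGF + UO than in Control. Of the 10 genes, 0 to 1 were lower in either of these comparisons.

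Over 21 pairs of same-numbered arrays the correlation of deviations from the group means ran from -0.25 to 0.41, and 8 exceeded 0.1, 4 of them between arrays numbered 3 and 3 of them between HGF and HGF + PD. Since not every pair did, the numbers were not taken to pair arrays. With the replicate block, 13924 probe sets were called for HGF against Control, 13850 for PD and 12919 for UO against HGF, in place of 13839, 13798 and 13060, and 1858 between the inhibitor groups. Differences that passed in neither fit changed sign in 38 of 3354 gene values, the largest being 0.31 in size as reported and 0.15 under an alternative. Dim probe sets limit what can be seen, above all HMOX1 on every array and MGST1 with HGF.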

Other observations

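Among 10286 other genes, the 3 with levels closest to those of NFE2L2 over the 15 arrays were DTX3L, SMARCD2 and ATP6V0D1. Likeness was the root mean square difference of log2 values, each centred on its own mean, and was 0.0713, 0.0768 and 0.0789. DTX3L, a ubiquitin ligase, read 10.03 ± 0.12, 9.59 ± 0.08, 9.84 ± 0.11 and 9.86 ± 0.08 in Control, HGF, HGF + PD and HGF + UO. SMARCD2, a subunit of SWI/SNF chromatin remodelling complexes, read 10.19 ± 0.13, 9.61 ± 0.09, 10.05 ± 0.06 and 10.07 ± 0.07 in the same order, and ATP6V0D1, a subunit of the vacuolar proton pump, 11.55 ± 0.07, 10.99 ± 0.03, 11.37 ± 0.04 and 11.44 ± 0.04.

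The genes closest to GSTA4 were BCHE (0.104), BEX4 (0.116) and EED (0.121). BCHE, butyrylcholinesterase, read 15.04 ± 0.04, 13.56 ± 0.07, 15.25 ± 0.06 and 15.30 ± 0.02 in Control, HGF, HGF + PD and HGF + UO, so that its HGF arrays were lowest as for GSTA4. EED, a subunit of a Polycomb repressive complex, read 12.69 ± 0.06, 11.41 ± 0.07, 12.80 ± 0.09 and 12.80 ± 0.02. The range of MGST1 was matched less closely, by TGFBI (0.651), KLHDC9 (0.665) and LIPA (0.737). TGFBI, a secreted matrix protein, read 9.35 ± 0.31, 7.96 ± 0.19, 12.26 ± 0.22 and 12.12 ± 0.10, and LIPA, the lysosomal acid lipase, 7.90 ± 0.22, 6.05 ± 0.31, 10.11 ± 0.14 and 10.34 ± 0.11. In all 3, as in MGST1, both inhibitor groups had means above Control and the HGF mean was below it. The genes were picked for their likeness, and no test was made.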
